A study of Mus musculus with 12 samples.

Results

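The genes described here encode the core enzymes of lipogenesis, the making of fatty acids and their storage as triglyceride, together with both transcription factors best known for switching them on. The 10 genes (Fasn, Acaca, Acly, Scd1, Scd2, Srebf1, Mlxipl, Dgat1, Dgat2 and Elovl6) were taken from a list written for this work and located by GENCODE mouse release M21, among 21938 protein-coding genes on chromosomes 1 to 19, X and Y. A MOF peak was counted for a gene when it touched the gene body or lay within 3 kb of any annotated start site.

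The series mapped the lysine acetyltransferase MOF (also called KAT8), which acetylates histone H4, by chromatin immunoprecipitation and sequencing (ChIP-seq) in visceral white adipose tissue, to ask which pathways it binds directly. The samples form 6 groups of 2 libraries, 12 in all: MOF ChIP, H3 ChIP and input DNA from wild type (Mof+/+) and from Mof heterozygous (Mof+/-) mice. All animals were of strain C57BL/6, 8 weeks old and on a standard diet, so strain, age and diet were shared by both genotypes. The Mof+/- animals carried 1 functional Mof copy in the whole body, not in adipocytes alone, and the chromatin came from bulk tissue that also holds vascular, stromal and immune cells. The files analysed here were 1 MOF peak list per genotype with no value per library, so they do not show the spread between animals and no test was made.

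Lipogenesis starts from citrate exported by mitochondria. The citrate is cut to acetyl-CoA, carboxylated to malonyl-CoA, built into palmitate, then elongated, desaturated and esterified to glycerol. SREBP-1 (from Srebf1) and ChREBP (from Mlxipl) are the transcription factors through which insulin and glucose raise these enzymes in liver and fat, and white adipose tissue stores the triglyceride that results.

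All 10 genes had a Mof+/+ peak and none had a Mof+/- peak. In the Mof+/+ list 10 of 10 carried a peak by the rule, against 44.5% of all protein-coding genes, and 10 of 10 carried a promoter peak, that is a peak within 1 kb of a start site, against 41.0% of all genes. Starts near a MOF peak tended to be CpG-rich in all genes, and the lipogenesis genes had between 40 and 126 CpG sites in the 1001 bp around their richest start. Among the 12677 protein-coding genes with at least 40 such sites, a cut set after seeing the data, 64.3% had a promoter peak. In the Mof+/- list 0 of 10 genes had a peak by the rule, against 1.89% of all genes, and 0 of 10 had a promoter peak, against 1.32%. The empty Mof+/- count was therefore near what most genes showed and is no feature of lipogenesis genes. In bulk tissue, fewer cells of a type and less MOF per cell cannot be told apart.

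**Figure D1:**
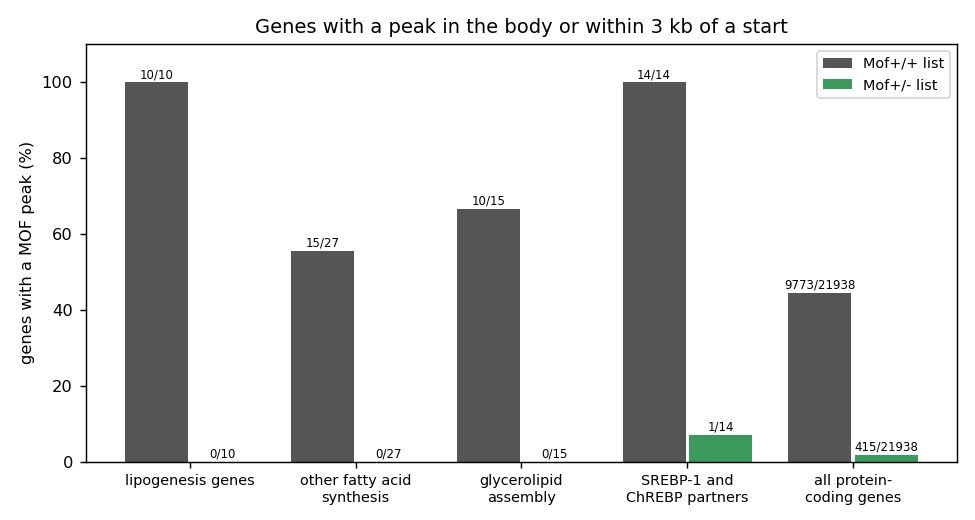
Share of genes (%, vertical axis) with a MOF peak in the gene body or within 3 kb of a start, for the Mof+/+ list (grey) and the Mof+/- list (green), with the number of genes over each bar. The lipogenesis genes stand at 10 of 10 in Mof+/+ and 0 of 10 in Mof+/-, beside 44.5% and 1.89% of all protein-coding genes.

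The 10 genes held 31 Mof+/+ peaks. Of these, 21 lay within 1 kb of a start and 13 covered one, and 6 genes had a peak over the start that RefSeq marks as its main one (RefSeq Select). Summits fell in an intron for 20 peaks, in an untranslated region for 4, upstream of the gene for 3, in a coding exon for 3 and in a noncoding exon for 1. The peaks were faint in absolute terms. Their summits held 11 to 24 fragments (median 15) over an input background of 3.52 to 6.26 fragments, and 17 of the 31 sat at the lowest background of the list, as did 49.9% of all Mof+/+ peaks. Fold enrichment is the ratio of fragments to input at the summit, with 1 added to each. It had a median of 3.32 over the 31 peaks and of 3.40 over all Mof+/+ peaks. Per gene, the highest fold enrichment had a median of 4.40 (range 2.85 to 5.32) over the 10 genes and of 3.98 (interquartile range 3.38 to 4.87) over all protein-coding genes with a Mof+/+ peak, and 6 of the 10 stood above that median. Several peaks per gene were common in the group. Of the genes, 9 of 10 had at least 2, against 17.5% of all protein-coding genes and 39.2% of those with a peak, while 8 of the 9 adipocyte markers with a peak did as well, and the median was 2 peaks against 1 in genes with a peak. With peaks within 1000 bp joined, 6 of 10 had at least 2, against 12.6%, and at q-values up to 0.001 only 3 did (Scd1, Srebf1 and Elovl6), against 8.82%, both settings chosen for this count after seeing the data. Intervals below are exact 95% Poisson intervals of the summit fragments and cover counting error only, and those of all 10 genes' strongest peaks overlapped, so the order of the genes by strength is not resolved.

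**Figure D2:**
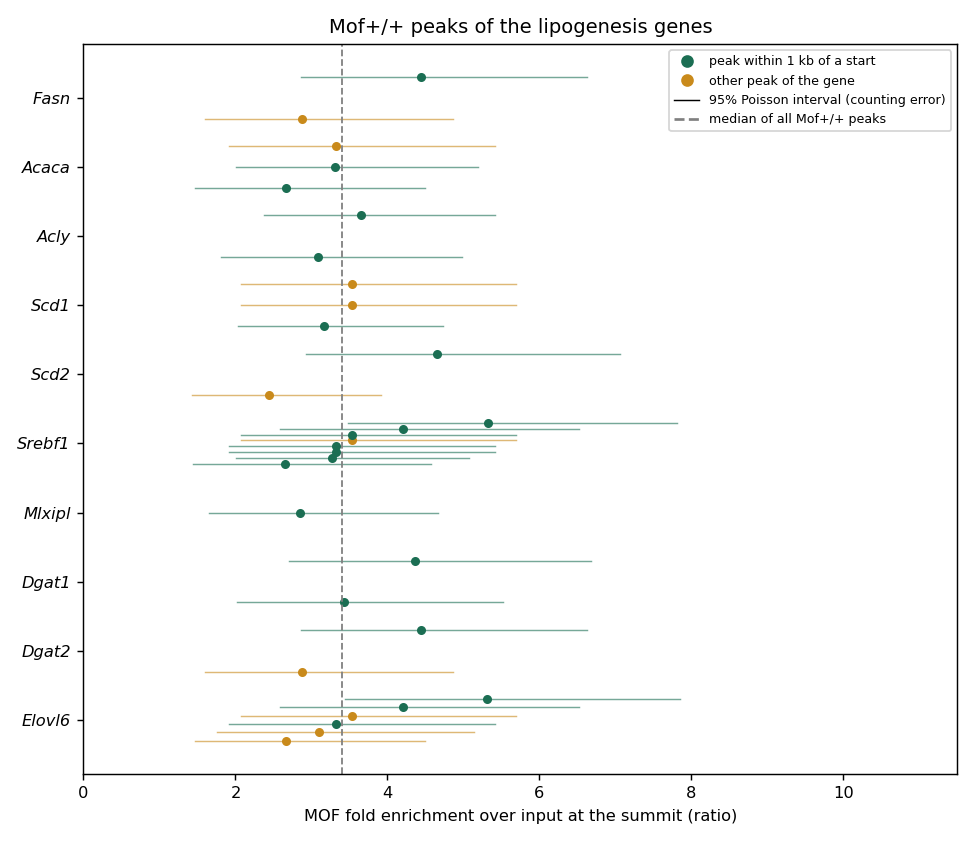
Fold enrichment of MOF over input at the summit (ratio, horizontal axis) of each of the 31 Mof+/+ peaks by gene, with 95% Poisson intervals as lines, peaks within 1 kb of a start in green, other peaks in orange and the median of all Mof+/+ peaks, 3.40, as a dashed line. Srebf1 and Elovl6 have the most peaks and the highest values, 5.32 and 5.31, and Mlxipl has a single peak at 2.85.

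The transcription factor Srebf1 (ENSMUSG00000020538.15, chr11:60199089-60222581 on GRCm38, minus strand) had the most peaks, 8, of which 7 lay within 1 kb of a start. As many or more were found in 1.19% of protein-coding genes. Srebf1 makes its isoforms from different starts: the c start gives SREBP-1c, the form that predominates in adipose tissue and liver, while the a start gives the stronger activator SREBP-1a. The highest of the 31 fold enrichments lay over the c start, at chr11:60210105-60211382, with its summit at -184 bp from that start, in an intron of the longer transcripts. It had a fold enrichment of 5.32 (interval 3.48 to 7.81) from 24 fragments, at percentile 86.1 of genes with a peak. The a start, which RefSeq shares with isoform b, was covered by a peak of 3.54 (2.08 to 5.69), and the start of isoform d by one of 3.27 (2.01 to 5.07). The 3 isoform starts thus each lay under a separate Mof+/+ peak, and the intervals overlapped. A peak of 4.20 (2.58 to 6.51) at chr11:60199387-60201111, in the coding 3′ part of the gene, lay within 1 kb of the start of another gene, Mir6921, and cannot be given to Srebf1 alone. The other 4 peaks had values from 2.65 to 3.54 and lay between 60205689 and 60221533 on the same chromosome, 3 of them within 1 kb of a start. With peaks closer than 1000 bp joined, 5 peak regions were left.

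RefSeq promoters (GRCm38.p6) were matched for 6 of the 10 genes by symbol, 9 promoters in all, and Scd1, Scd2, Dgat1 and Dgat2 are named only. They were searched on both strands, in 250 bases before to 50 after the start, for a sterol regulatory element (SRE, TCACNCCAC), an E-box (CACGTG, the core of the ChREBP element), a CCAAT box (CCAAT, bound by NF-Y) and a GC box (GGGCGG, bound by Sp1), the classic elements of lipogenic promoters. These letters occur in 1.19%, 7.84%, 38.2% and 46.2% of 21263 protein-coding RefSeq promoters, in that order. The c promoter and the a promoter of Srebf1 are shown, 250 bases upstream of each start (chr11:60210472-60210721 and chr11:60220628-60220877, minus strand), because the first lay wholly under the strongest peak and the second almost wholly outside its own. Capitals mark motif matches on either strand.
Srebf1 c promoter: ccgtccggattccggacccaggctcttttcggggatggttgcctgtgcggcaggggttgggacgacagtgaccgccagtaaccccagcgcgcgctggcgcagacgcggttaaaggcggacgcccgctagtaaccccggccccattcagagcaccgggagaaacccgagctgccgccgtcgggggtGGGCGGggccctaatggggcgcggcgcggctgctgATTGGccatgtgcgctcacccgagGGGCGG
Srebf1 a promoter: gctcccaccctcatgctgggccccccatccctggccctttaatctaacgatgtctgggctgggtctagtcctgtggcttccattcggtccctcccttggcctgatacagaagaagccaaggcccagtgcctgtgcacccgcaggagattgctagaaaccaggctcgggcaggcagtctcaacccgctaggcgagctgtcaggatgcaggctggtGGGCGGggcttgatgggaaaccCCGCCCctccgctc
In the c promoter all 250 bases were under the peak, and it held 2 GC boxes and 1 CCAAT box, the last read on the opposite strand at -30 to -26 from the start. In the a promoter 28 of 250 bases were under a peak, and 2 GC boxes fall in the printed stretch with 1 more just past the start. Neither held an SRE or an E-box as spelled here. The promoter of isoform d, all 250 bases under a peak, held 1 CCAAT box.

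**Figure D3:**
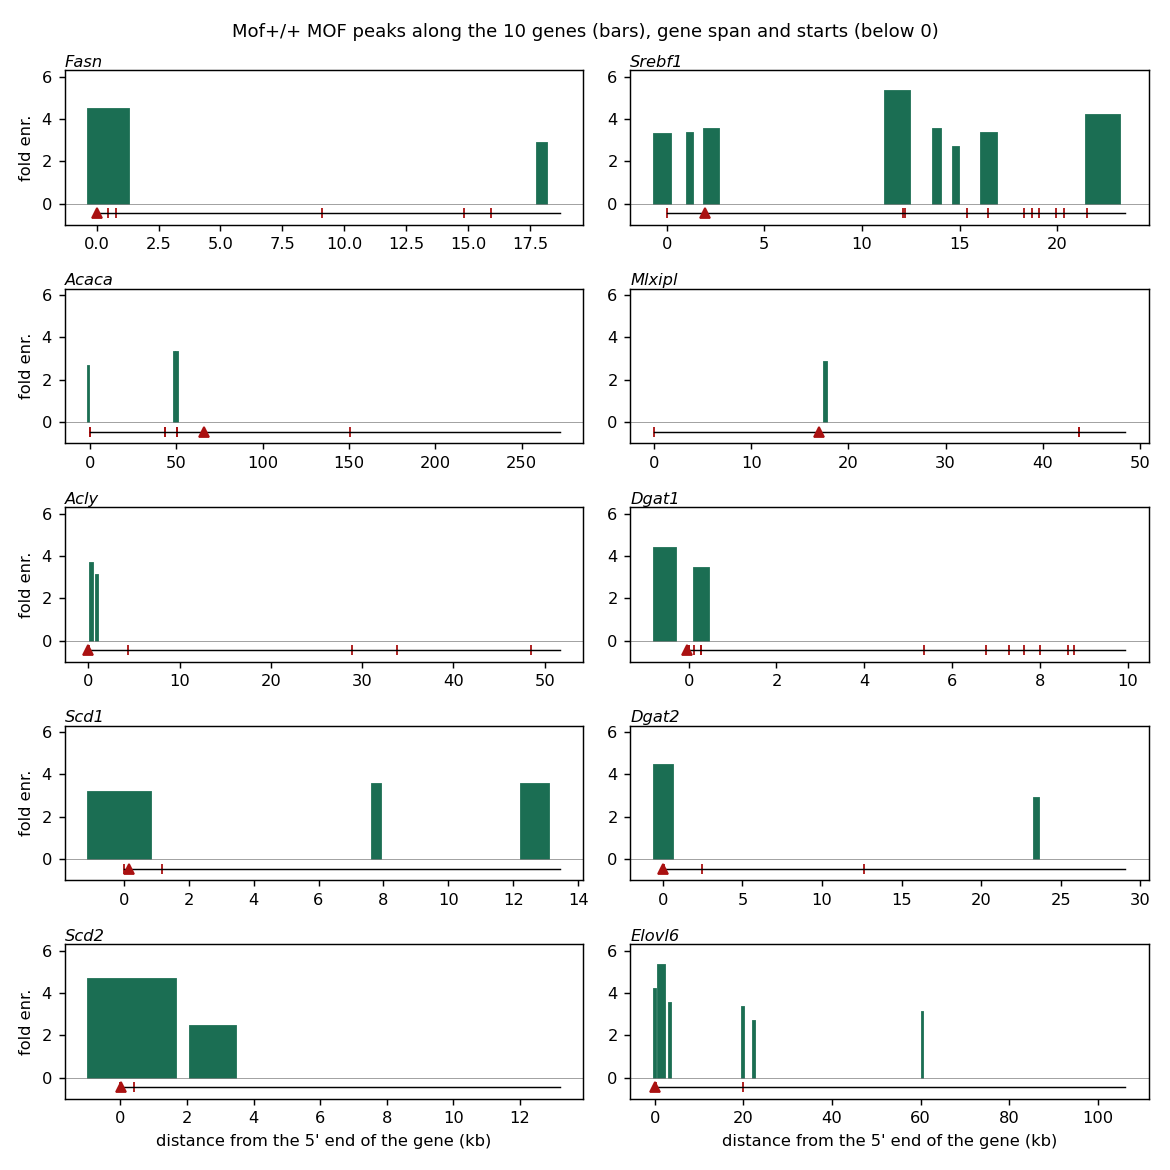
MOF peaks of the Mof+/+ list along each of the 10 genes: bars span the peak and rise to its fold enrichment (ratio, vertical axis), the horizontal axis gives distance from the 5′ end of the gene in kb, and below 0 a line marks the gene, red ticks its annotated starts and a triangle the RefSeq Select start. Srebf1 has 8 peaks spread over its length, the Acaca triangle stands 15073 bp from the nearest peak, and no panel has a Mof+/- peak.

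Mlxipl (ENSMUSG00000005373.13, chr5:135089890-135138382, plus strand), which encodes the glucose-responsive factor ChREBP, stood at the other end. It had 1 peak, at chr5:135107408-135107724 in an intron, with a fold enrichment of 2.85 (1.65 to 4.66) from 14 fragments, at percentile 6.95 of genes with a peak. The peak did not cover a start. It lay 517 bp from the RefSeq start of isoform 1 and 17518 bp from that of isoform 2, and its summit was 683 bp into the gene from the isoform 1 start. The −log10 q of this only peak was 1.87, and once a q-value of 0.01 was required Mlxipl was the 1 lipogenesis gene left without a peak. The isoform 1 promoter (chr5:135106641-135106890, plus strand) is shown because it held the only SRE match among the 9 promoters, at -136 to -128, although 0 of its 250 bases were under a peak.
Mlxipl isoform 1 promoter: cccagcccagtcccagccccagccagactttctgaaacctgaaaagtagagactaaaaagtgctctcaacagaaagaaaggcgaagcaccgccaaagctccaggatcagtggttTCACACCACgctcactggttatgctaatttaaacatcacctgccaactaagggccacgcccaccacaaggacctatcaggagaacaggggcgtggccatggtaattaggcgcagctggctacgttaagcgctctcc
The isoform 2 promoter, also with 0 bases under a peak, held the only E-box match, at -98 to -93, besides 1 CCAAT box and 2 GC boxes.

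Acly (ENSMUSG00000020917.17, chr11:100476353-100528000, minus strand) encodes ATP-citrate lyase, which cuts citrate to acetyl-CoA and so supplies both fatty acid synthesis and the acetyltransferases of the nucleus, MOF among them. It had 2 peaks close to each other just inside the gene, both in introns. The stronger, at chr11:100527485-100527839, had a fold enrichment of 3.66 (2.37 to 5.41) from 23 fragments and the weaker 3.09 (1.82 to 4.97). Its input background of 5.57 fragments was well over the lowest of the list, so its 23 fragments, about as many as in the strongest peaks of the group, gave a middling ratio. The nearer edge lay 161 bp from the RefSeq start, and the promoter, with 4 GC boxes and a CCAAT box at 37 to 41 bases past the start, had 0 of 250 bases under a peak.

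Acaca (ENSMUSG00000020532.18, chr11:84129672-84401651, plus strand) encodes acetyl-CoA carboxylase 1, which makes malonyl-CoA and is the committed step. Its 3 peaks were of similar, modest strength, with fold enrichments of 3.32 (1.91 to 5.42), 3.31 (2.00 to 5.19) and 2.66 (1.47 to 4.49). Acaca has several annotated starts far apart. The peak of 3.32, at chr11:84178198-84178581 in an intron, held 5 CpG sites and lay 1250 bp from the nearest start. The other peaks covered CpG-rich starts or lay within 1 kb of one. The starts at 84179831 and 84179858 had 112 and 113 CpG sites in 1001 bp, and both lay under the peak at chr11:84179318-84180365. The first start of the gene, with 92 CpG sites, had the weakest peak 553 bp away, upstream of the gene and within 1 kb of a start of the neighbouring gene Tada2a as well. The RefSeq Select start at 84195438, with 6 CpG sites, was 15073 bp from the nearest peak. The 250 bases before it (chr11:84195188-84195437) are shown because they hold 0 CpG sites and none of the 4 motifs, so nothing stands in capitals. They end in a pyrimidine-rich stretch and AG, the form of the end of an intron. This annotated start may therefore not be a promoter, which was not tested.
Acaca RefSeq Select promoter: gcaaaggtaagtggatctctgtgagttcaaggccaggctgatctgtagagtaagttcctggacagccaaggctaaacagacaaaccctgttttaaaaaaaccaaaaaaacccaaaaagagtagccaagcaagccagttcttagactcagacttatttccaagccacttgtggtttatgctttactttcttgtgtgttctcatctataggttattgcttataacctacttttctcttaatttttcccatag

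Fasn (ENSMUSG00000025153.9, chr11:120805846-120824547, minus strand) encodes fatty acid synthase, the enzyme that builds palmitate. A broad peak of 1644 bp at chr11:120823243-120824886 covered its start, with a fold enrichment of 4.44 (2.86 to 6.63) from 22 fragments, at percentile 66.0 of genes with a peak. The summit lay 620 bp into the gene from the RefSeq start, in an intron, close to the start with the most CpG sites (126 in 1001 bp). A second, weak peak of 2.88 (1.59 to 4.86) lay at the far end of the gene in an untranslated region, 17787 bp from that start. The Fasn promoter (chr11:120824548-120824797, minus strand) is shown because all 250 bases lay under the start peak and it held 33 CpG sites, the most of the 9 promoters.
Fasn promoter: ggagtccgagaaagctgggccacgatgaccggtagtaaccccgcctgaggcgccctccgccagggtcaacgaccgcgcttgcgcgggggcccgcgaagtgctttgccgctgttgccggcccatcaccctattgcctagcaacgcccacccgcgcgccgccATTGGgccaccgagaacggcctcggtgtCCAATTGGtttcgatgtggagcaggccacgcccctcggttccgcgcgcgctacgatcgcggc
It held 3 CCAAT boxes, 2 of which overlap each other in opposite directions between -62 and -55, and no SRE, E-box or GC box as spelled here.

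Elovl6 (ENSMUSG00000041220.10, chr3:129532355-129638495, plus strand) encodes the elongase that carries palmitate to stearate. It had 6 peaks, a number reached or passed by 2.04% of protein-coding genes, and 3 of them were promoter peaks. A peak of 4.20 (2.58 to 6.51) covered the start, with its summit 9 bp past it. The strongest peak, 5.31 (3.45 to 7.86) from 23 fragments at chr3:129533115-129534721, lay just downstream in an intron, and both were also within 1 kb of a start of the neighbouring gene Gm35986. The other 4 peaks lay in introns and had values from 2.66 to 3.54, 1 of them over a start with only 10 CpG sites. The Elovl6 promoter, with 201 of 250 bases under the start peak, matched none of the 4 motifs.

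The stearoyl-CoA desaturases turn stearate and palmitate into monounsaturated fatty acids. Scd1 (ENSMUSG00000037071.3, chr19:44394455-44407879, minus strand), the main isoform of fat and liver, had 3 peaks. A broad peak of 1941 bp covered its start with a fold enrichment of 3.17 (2.04 to 4.72) from 22 fragments, over an input background of 6.26 fragments, the highest among the 31 peaks. A pair of distal peaks, 1 in an intron and 1 in the untranslated region at the end of the gene, both had 3.54 (2.08 to 5.69), with 15 fragments each. The start peak was the strongest of the gene by −log10 p (6.68 against 6.00), and the fold enrichments did not differ beyond their intervals. Scd2 (ENSMUSG00000025203.6, chr19:44293674-44306864, plus strand) had the widest peak of the group, 2631 bp at chr19:44292707-44295337. It covered the start with a fold enrichment of 4.65 (2.92 to 7.05) from 20 fragments, at percentile 72.4 of genes with a peak, and a second peak next to it had the lowest value of the 31, 2.44 (1.43 to 3.92). The start peaks of the desaturases did not differ beyond their counting intervals. Their tandem paralogs Scd3 and Scd4, named after their values were seen, had no peak in either list. Scd genes are alike in sequence, and how reads mapping to several places were treated is not given in the sources used here.

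Triglyceride is closed by the diacylglycerol acyltransferases, which are unrelated enzymes for the same last step. Dgat1 (ENSMUSG00000022555.12, chr15:76502015-76511953, minus strand) had a peak on either side of its RefSeq Select start and none over it. The upstream peak at chr15:76512242-76512742 had a fold enrichment of 4.36 (2.71 to 6.68) and the peak just inside the gene, with its summit in a coding exon, 3.43 (2.01 to 5.52). Joined within 1000 bp, they formed 1 region across the start. Dgat2 (ENSMUSG00000030747.5, chr7:99153658-99182719, minus strand) had a peak of 1214 bp over its start at chr7:99182070-99183283, with the summit at -62 bp from the RefSeq start, and its fold enrichment of 4.44 (2.86 to 6.63) from 22 fragments equalled that of the Fasn start peak. A weak intronic peak of 2.88 (1.59 to 4.86) lay 23322 bp from that start.

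Across the 67 annotated starts of the 10 genes, those near a peak were the CpG-rich ones, as they were in all genes. The 39 starts within 1 kb of a Mof+/+ peak had a median of 62 CpG sites in 1001 bp (range 10 to 126) and a GC content of 58.4%. The 28 others had 15.5 (range 5 to 47) and 52.0%. Over all protein-coding genes the medians were 66 for 33647 starts near a peak and 16 for 59866 others. Starts of a gene lie close together and share peaks, so they are not independent. The chromatin was cut partly with CviKI-1, an enzyme that cuts at RGCY, and these sites had a median density of 21.1 per kb (range 3.51 to 39.7) in the lipogenesis peaks and of 21.2 per kb in all Mof+/+ peaks.

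**Figure D4:**
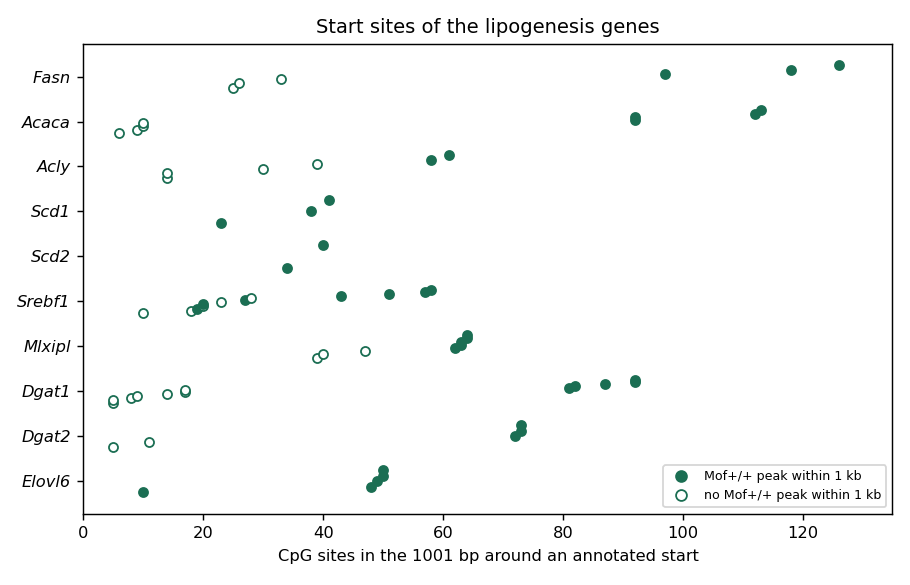
CpG sites counted over 1001 bp centred on each annotated start (horizontal axis) of the 10 genes, 67 starts in all, filled where a Mof+/+ peak lay within 1 kb and open where none did. Filled points have a median of 62 CpG sites and open points 15.5, and filled points at low values belong to Srebf1, Elovl6 and Scd1.

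The lists differed in depth, which bears on the absence of the 10 genes from the Mof+/- list. For the peaks whose background could be solved (19769 of 19773 in Mof+/+ and 727 of 731 in Mof+/-) its lowest value was 3.52 fragments in Mof+/+ and 2.26 in Mof+/-, a ratio of 0.642, and the weakest −log10 p was 3.25 and 4.72. At the lowest Mof+/- background, 11 fragments or a fold enrichment of 3.68 were needed to reach its weakest p. Of the 31 lipogenesis peaks, 23 in 9 genes (74.2%) had a p at or past the weakest Mof+/- value, against 68.6% of all Mof+/+ peaks, and Mlxipl was the gene without one. With the background of each peak also scaled by the ratio of the lowest backgrounds, its fold enrichment kept and fragments rounded down, 9 peaks in 7 genes (29.0%) still reached that p, against 44.1% of all. These were peaks of Srebf1 (2), Elovl6 (2), Fasn, Scd2, Dgat1, Dgat2 and Acly. With fragments rounded to the nearest whole number, a choice made after seeing the data, the count was 17 peaks in 9 genes, and 51.6% of all. Acaca and Scd1 had such a peak only with the second rounding and Mlxipl with neither, so for Mlxipl a difference was not detectable at this depth under either rounding. The part of depth in the missing Mof+/- peaks was not tested. The nearest Mof+/- peak lay between 122.9 kb (Acaca) and 4401 kb (Mlxipl) from a gene of the group.

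**Figure D5:**
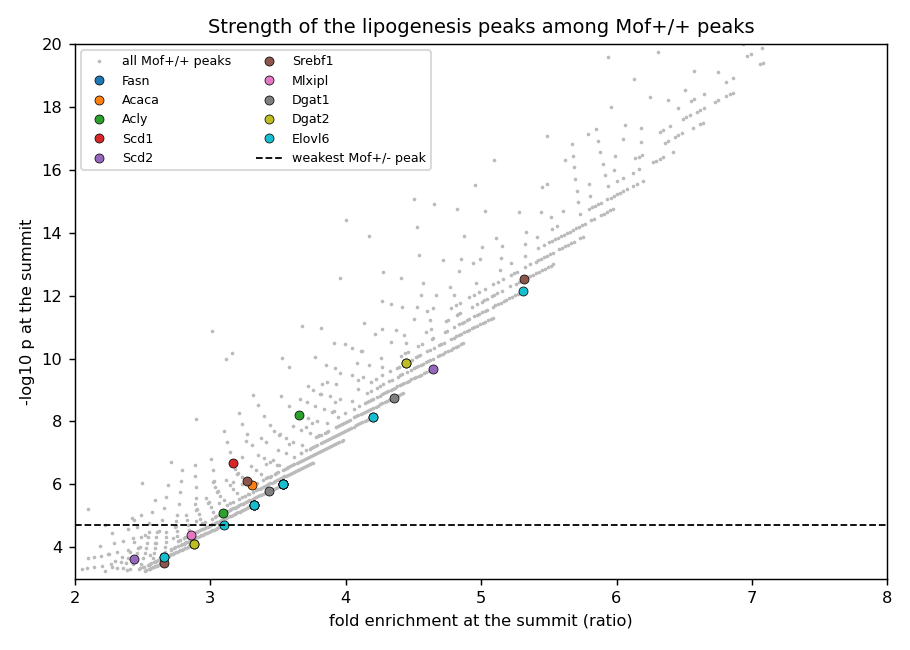
Fold enrichment (ratio, horizontal axis) against −log10 p at the summit (vertical axis) of the lipogenesis peaks (coloured by gene) among all Mof+/+ peaks (grey), with the weakest Mof+/- value, 4.72, as a dashed line. The axes leave out the strongest peaks of the list, points of equal value overlie each other, and 23 of the 31 lipogenesis peaks lie at or over the line.

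Neighbouring genes of the pathway were counted by the same rule. Of 27 other genes of fatty acid synthesis, elongation and desaturation, 15 had a Mof+/+ peak, 14 of them at a promoter, and 0 had a Mof+/- peak, near the 44.5%, 41.0% and 1.89% of all protein-coding genes given above. The highest fold enrichments were those of Hacd3 (5.53) and Tecr (4.57), which complete the elongation cycle that Elovl6 begins, and of Idh1 (5.31), a source of NADPH. Fads2, a polyunsaturated fatty acid desaturase, was the gene with a peak, 2.56, away from a promoter. Of 15 other genes of glycerolipid assembly, 10 had a Mof+/+ peak, all at a promoter, and 0 a Mof+/- peak. The strongest were Agpat3 (6.04), Gpat4 (5.31) and Gpat3 (5.19), acyltransferases that act before the Dgat step, and the 5 without a peak were Gpd1, Gpat2, Lpin3, Mogat1 and Mogat2. All 14 partners and regulators of SREBP-1 and ChREBP had a Mof+/+ peak, 13 at a promoter, and 1 had a Mof+/- peak. Among them Nr1h3, which encodes the SREBP-1c activator LXRα, had the highest fold enrichment (5.97), followed by Usf1 (5.75) and Usf2 (5.53), factors that bind E-boxes of lipogenic promoters. The exception at promoters was Scap (3.10), the escort of SREBP. Sp1 was the only gene of these lists, the lipogenesis genes included, with a Mof+/- peak, with fold enrichments of 4.60 in Mof+/- and 4.94 in Mof+/+. Median highest fold enrichments were 3.54, 4.49 and 4.23 in the 3 lists, beside 4.40 in the lipogenesis genes. Fads2, Scap and the 5 genes without a peak were named after their values were seen.

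Markers of cell types were counted too, since a MOF peak does not say which cells it came from. By the same rule 9 of 12 adipocyte, 6 of 6 B cell, 5 of 6 T cell, 1 of 6 macrophage and 0 of 6 hepatocyte markers had a Mof+/+ peak, against 44.5% of all genes. Their highest fold enrichments had a median of 3.54 (range 2.65 to 5.09) in the adipocyte genes, 4.63 (3.10 to 7.52) in the B cell genes and 3.81 (2.26 to 5.75) in the T cell genes, and Cd68, the macrophage gene, had 5.75. The adipocyte genes Lep, Retn and Adrb3 had no peak in either list. Promoter peaks in the Mof+/+ list, which 41.0% of all genes had, were found for 6 of 12 adipocyte markers, 5 of 6 B cell, 4 of 6 T cell, 1 of 6 macrophage (Cd68) and 0 of 6 hepatocyte markers. The T cell genes were Cd3e, Cd3d, Cd3g and Lck. In the Mof+/- list 1 of 6 B cell markers, Pax5, had a promoter peak, and 0 of 12 adipocyte, 0 of 6 T cell, 0 of 6 macrophage and 0 of 6 hepatocyte markers did, against 1.32% of all genes. The markers were named after their values were seen. A peak is not a measure of expression, and the part of other cell types in the lipogenesis peaks was not tested.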

How the data were processed

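Visceral white adipose tissue of C57BL/6 mice was analysed from 2 MOF peak lists, 1 per genotype. Per the study's methods, snakePipes aligned the paired-end reads to GRCm38, and MACS2 called peaks against input (the caller's version was 2.1.1.20160309.3 in the submitters' processing notes) at a q-value of 0.1. The methods describe joining peaks with BEDtools, but whether reads or peaks of the replicates were combined in each deposited list is not given in the sources used here. A list was given its genotype from its name and its number of peaks. The labels give 2 libraries per group and the reporting summary 2 littermates per genotype, while the design text counts 3 Mof+/- animals, and the MOF antibody in the labels is not among those in that summary. The deposited fold enrichment is the ratio of summit fragments to local input background, with a pseudocount of 1 added to each. MACS2 also wrote the p-value and the q-value of each summit, deposited as −log10. The number of value columns of no sample was 0. The H3 and input libraries and the signal tracks were not analysed here. The merging of peaks within 1000 bp that the methods describe was not seen in the lists, and it was tried as an alternative.

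Genes and starts were those of GENCODE mouse release M21, and sequence and promoters those of RefSeq GRCm38.p6. Coordinates are counted from 1. A peak belonged to a gene when it overlapped the gene body by at least 1 bp or lay within 3 kb of a start of any transcript, so that 1 peak can belong to several genes. Fragments and background were solved from the deposited ratio and p-value as MACS2 computes them, with a pseudocount of 1 and a tolerance of 0.001 in −log10 p. This succeeded for 19769 of 19773 Mof+/+ peaks and 727 of 731 Mof+/- peaks, and the solver was checked on simulated data. The lists give no library totals, so depth was read from the background alone. Fragments may include PCR copies, which the intervals do not cover.

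All 10 lipogenesis genes were named. Of the pathway lists, the 3 genes with the highest Mof+/+ fold enrichment and each gene with a Mof+/- peak were named. The members, lists and markers were chosen with earlier results of these data known. Each genotype had 1 list, so no test was made and values are descriptions. Alternatives were stricter q-values, a shared p-value limit, other windows and starts, merged peaks and, added after seeing the data, another rounding of fragments and 2 settings for the count of genes with several peaks. Python 3.11.15, numpy 2.4.6, pandas 2.3.3, scipy 1.17.1 and matplotlib 3.10.9 were used.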

Additional observations from a re-analysis of the deposited data

How the results depend on the processing

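Of 35 alternatives of the counts above 0 and the median over the lipogenesis genes, 32 stayed within 1.5 times the reported count or, for the median, within its counting interval. The exceptions were the number of Mof+/+ peaks of the 10 genes, which was 31 as deposited and 17 once the q-value had to reach 0.001, the number of genes with at least 2 peaks, which was 9 and then 3 under that limit, and the number of peaks that reached the weakest Mof+/- p with the background scaled, which rose from 9 to 17 with fragments rounded to the nearest whole number. The first 2 follow from the stricter limit and the last from rounding up some fragment numbers. The number of genes with a Mof+/+ peak was 9 with a q-value limit of 0.01 or 0.001 and with the weakest Mof+/- p, each time without Mlxipl, and 10 under the other settings tried. Merging peaks within 1000 bp left 22 regions. The Mof+/- counts of 0 could not change under these settings and say nothing of stability. All settings but merging only narrow the choice of peaks. Merging joins peaks at most 1000 bp apart, and the nearest Mof+/- peak lay 122.9 kb from a gene of the group. For all 10 genes the strongest peak by p-value had a fold enrichment within the interval of the highest one.

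No paired analysis was possible because the files analysed here hold 1 list per genotype and no column names a replicate, and no replicate could be left out for the same reason. Signal tracks and reads were not analysed here, so the difference between the lists has no replicate check in these values. Summits of 11 to 24 fragments do not resolve the order of the genes.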
